A study of Mus musculus with 9 samples.

Results

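Lysosomes are acid compartments in which proteins, glycans and lipids are broken down by hydrolases that work at low pH. The acid is supplied by the vacuolar proton pump, whose cytosolic V1 domain hydrolyses ATP and whose membrane V0 domain carries the protons, with accessory proteins that help in its assembly. Neurons depend on this system to clear material delivered by endocytosis and autophagy, and inherited loss of single hydrolases causes storage diseases, many of which affect the nervous system. Here the transcripts of 39 genes were followed, 15 of them for subunits and accessory proteins of the pump. Another 22 were for lysosomal hydrolases, their cofactors and the cholesterol-handling proteins Npc1 and Npc2, and 2 for lysosomal membrane glycoproteins. The genes were matched to arrays of the mouse neuroblastoma line N1E-115 by taking every probe set whose platform annotation gave exactly 1 symbol and that symbol was on the list. This gave 74 of 22626 probe sets and 38 of the 39 genes, with Atp6v0c the gene without such a probe set.

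The study compared N1E-115 cells that overexpressed mouse Tcof1 with wildtype cells and with a Tcof1 knockdown, on 3 arrays of total RNA for each, lettered A, B and C. Tcof1 encodes treacle, which works in the nucleolus in the making of ribosomal RNA. The sources used here do not say how Tcof1 was raised or lowered, whether a group was 1 clone, or what the letters stand for. The p-values therefore reflect the spread between arrays alone, and that spread may be technical. Each gene is given by its brightest probe set over the 9 arrays unless another is named, as intensity in array units, and a gene was called when its adjusted p in limma, over all 22626 probe sets, was under 0.05.

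Array medians ran from 164.1 to 185.95 units. The 3 probe sets of Tcof1 gave log2 fold changes of 0.39 to 0.87 in overexpressed over wildtype, and 1 passed the test (0.87 ± 0.21 SE, adjusted p = 0.0241). The brightest of the 3 gave 0.39 ± 0.17 (adjusted p = 0.187), and its arrays read 268.6 to 292.8 units in overexpressing, 167.8 to 232.6 in wildtype and 204.9 to 228.9 in knockdown cells, the last pair with overlap. In the called probe set the overexpressing arrays read 232.4 to 385.5, the wildtype arrays 143.1 to 156.3 and the knockdown arrays 112.1 to 134.8 units. None of the 3 passed in knockdown over wildtype (adjusted p = 0.51 to 0.934), so the knockdown label was not checked by Tcof1. Of 15 markers of neuroblastoma and sympathoadrenal cells, 13 were measured, and 12 of these were brighter than the median probe set. Their summed level was 40167.9 to 44193.2 units in overexpressing, 46307.2 to 50748.1 in wildtype and 47932.8 to 51944.2 in knockdown arrays, lower in every overexpressing array. Its largest part was Chgb, with a mean of 14492.5 units in overexpressing and 17289.4 in wildtype arrays, which was not called (adjusted p = 0.117). In overexpressed over wildtype 3 of the 13 were called lower (Ache -1.40, Chga -0.75 and Stmn2 -0.38 as log2 fold changes, named from their values). Another 2 were called higher (Isl1 0.99 and Dbh 0.60), and 4 of the 13 values were above 0. Of 14 macrophage markers, 13 were dimmer than that median, none was called in overexpressed over wildtype, and their summed level was 859 to 980.9 units in overexpressing, 990.5 to 1030.1 in wildtype and 940.6 to 1396.2 in knockdown arrays, so each overexpressing array was below each wildtype array. All 10 fibroblast markers were measured and 8 were dimmer than the median, with sums of 3675.3 to 4015.5, 5171.6 to 5563.5 and 5187.1 to 5742.5 units in the same order. This sum was lower in every overexpressing array, and most of it was Fbln1, with a mean of 3314 units in overexpressing and 4623 in wildtype arrays; 2 of the 10, Fbln1 and Pdgfrb, were called lower and 4 of the 10 values were above 0. The part of these markers in the results below was not tested.

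The wildtype arrays were not alike for the lysosomal genes. Wildtype A was the highest of the 3 wildtype arrays for 23 of 38 genes and wildtype C the lowest for 31. Set against the wildtype mean, the median of the 38 genes was 0.13 in wildtype A, 0.02 in B and -0.17 in C on the log2 scale. The same median was -0.45, -0.50 and -0.35 in overexpressing arrays A, B and C, below each wildtype array, and -0.15, -0.09 and -0.09 in the knockdown arrays, between wildtype B and wildtype C.

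**Figure D1:**
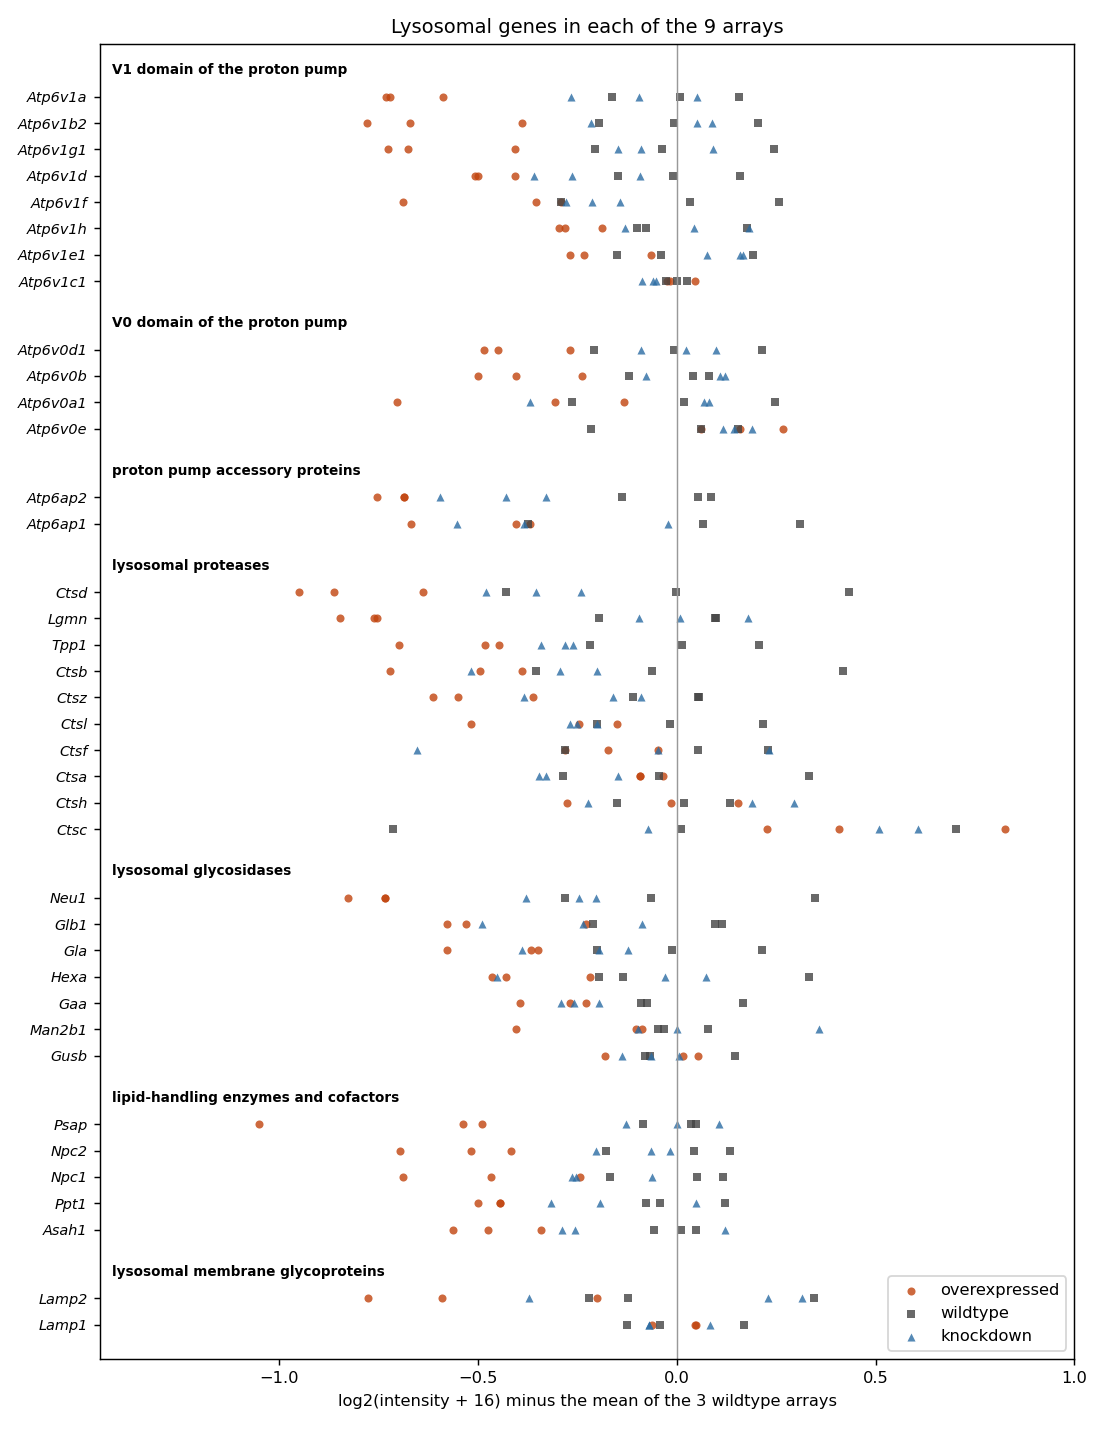
Each row is 1 of the 38 lysosomal genes, grouped by role, and each point is 1 array, placed on the x axis by log2(intensity + 16) minus the mean of the 3 wildtype arrays. The overexpressing arrays (circles) lie left of all 3 wildtype arrays (squares) for 25 genes, while knockdown arrays (triangles) do so for 5.

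In cells overexpressing Tcof1, transcripts of 7 of 14 measured genes of the proton pump were lower than in wildtype cells. So were 8 of 22 for lysosomal hydrolases, cofactors and cholesterol handling. Of the 38 genes, 15 fell and none rose, with fold changes between -0.82 and 0.49 on the log2 scale and a median of -0.45. Over the whole array 5.07% of probe sets were called lower and 4.52% higher. With every gene of the array taken by its brightest probe set, 6.21% of 12393 genes were called lower and the median was -0.03, against 39.5% of the lysosomal genes. All 3 overexpressing arrays lay below all 3 wildtype arrays for 25 of the 38 (65.8%), which held for 16.1% of all genes. Bright genes are called more often, and among the genes brighter than the median probe set the share called lower was 9.93% for the array and 15 of 34 (44.1%) for the lysosomal genes. The 4 dimmer ones, Ctsc, Ctsf, Ctsh and Npc1, were not called. Above the median, brightness was not matched between the lysosomal genes and the array. The part of brightness in these shares was not tested. In these bulk RNA samples, fewer cells of a type and less RNA per cell cannot be told apart.

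The count of calls depended on single arrays. Leaving out 1 array at a time gave 6 to 19 called lysosomal genes, with 6 without overexpressed B, 7 without wildtype B and 19 without wildtype C. Over the whole array, 2169 calls in either direction became 1288, 1090 and 2404 in the same order. Without overexpressed A or wildtype A the count of lysosomal genes was 10, with 1197 and 1347 calls over the whole array. The median fold change of the lysosomal genes stayed between -0.52 and -0.34 in all 9 of these fits. Atp6ap2, Atp6v1a, Lgmn, Neu1, Npc2 and Psap were called in all 9. Without a mean-variance trend in the fit, 5 of the 15 were called, and 1339 probe sets over the whole array.

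**Figure D2:**
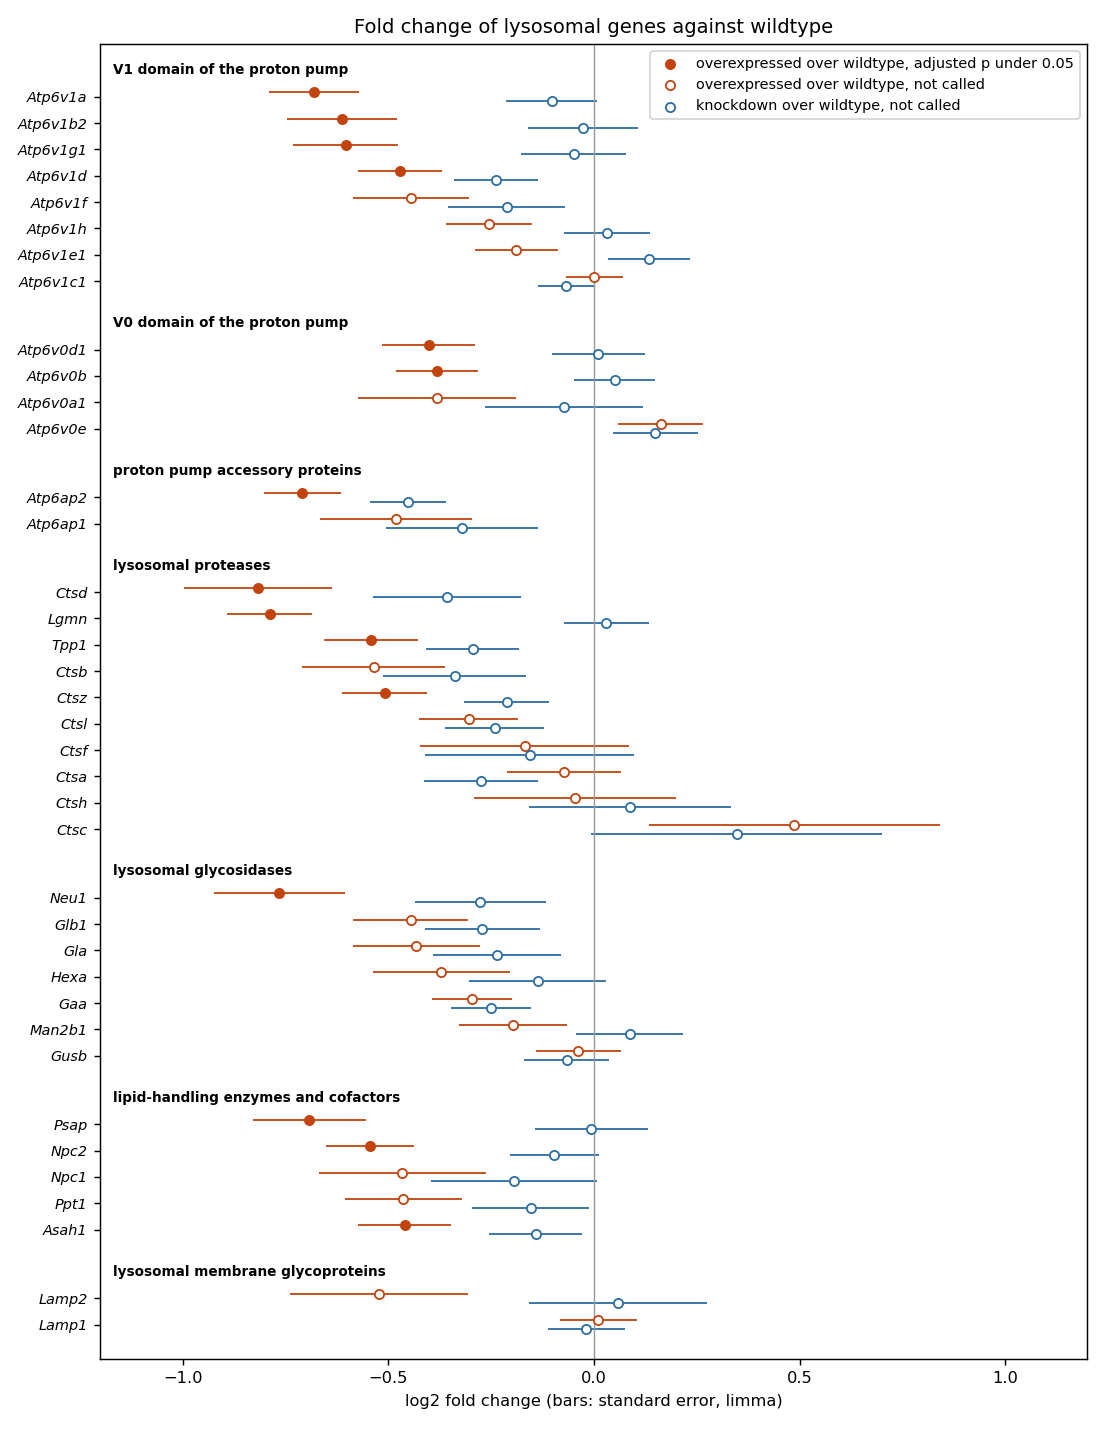
Log2 fold change of each lysosomal gene in overexpressed over wildtype (upper marker of a pair) and knockdown over wildtype (lower marker), with bars for the limma standard error. Filled markers passed an adjusted p under 0.05; 15 markers of the first comparison are filled, from -0.82 to -0.38, and none of the second.

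Many lysosomal genes carry the palindrome CACGTG near their start, which is part of the longer palindrome TCACGTGA that transcription factors of the MiT/TFE family are known to bind. RefSeq promoter windows on GRCm38.p6, from 250 bases before to 50 after a gene start, were found for 31 of the 39 genes. CACGTG was present in the windows of 13 of the 31 (41.9%) against 8.09% of all genes with a window, and TCACGTGA in 6 (19.4%) against 1.12%. By window rather than by gene, the shares were 36.1% and 16.7%, against 7.15% and 0.974% of all 32851 windows of this length. Each motif is its own reverse complement, so 1 search covers both strands, and every TCACGTGA also counts as a CACGTG. Among the genes called lower in overexpressing cells 5 of 12 with a window held CACGTG, and among the measured genes not called 8 of 18 did. These are descriptions of the letters only, since binding was not measured. The stretches below run 5′ to 3′ on the gene's strand, with the motif in capitals, and show it in 4 genes that fell (Ctsd, Atp6v1a, Lgmn and Atp6v0b) and in 2 that were not called (Gla and Lamp1).
Ctsd, chr7:142387895-142387950, minus strand, -123 to -68 from the gene start: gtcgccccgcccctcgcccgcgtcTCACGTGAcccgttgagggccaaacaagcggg
Atp6v1a, chr16:44139360-44139415, minus strand, -156 to -101: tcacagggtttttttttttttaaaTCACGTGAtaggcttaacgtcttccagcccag
Lgmn, chr12:102439111-102439166, minus strand, -74 to -19: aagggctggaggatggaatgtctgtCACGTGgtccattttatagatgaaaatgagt
Atp6v0b, chr4:117887330-117887390, minus strand, -61 to -1: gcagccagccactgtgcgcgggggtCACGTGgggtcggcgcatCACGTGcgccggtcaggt
Gla, chrX:134601169-134601255, minus strand, -250 to -164: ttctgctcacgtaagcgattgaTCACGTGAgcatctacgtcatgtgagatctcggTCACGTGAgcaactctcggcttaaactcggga
Lamp1, chr8:13159075-13159160, plus strand, -86 to -1: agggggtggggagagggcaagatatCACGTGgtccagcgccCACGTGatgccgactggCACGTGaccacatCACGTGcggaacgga

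In the V1 domain, the ATP-hydrolysing part of the pump, 4 of 8 subunit genes fell and none rose, with a median of -0.46. That share was 50%, against 6.21% of all genes called lower and 9.93% of the brighter ones. Atp6v1a, the catalytic A subunit, read 1114.1, 1121.5 and 1231.9 units in overexpressing arrays A, B and C, 2073.5, 1872.3 and 1658.5 in wildtype, and 1544, 1928.6 and 1741.7 in knockdown. The overexpressing arrays stood apart below the other 6, at 61.9% of the wildtype mean, and wildtype and knockdown overlapped. Its log2 fold change over wildtype was -0.68 ± 0.11 (adjusted p = 0.00388), and its other probe set gave -0.79 ± 0.11 (adjusted p = 0.00164). Atp6v1b2, the nucleotide-binding B subunit of most tissues, read 3104.6, 2879.6 and 3776.1 units in overexpressing arrays, 5705.1, 4923.1 and 4322.8 in wildtype and 4258.2, 5131.7 and 5264.8 in knockdown arrays. Again the overexpressing arrays were the 3 lowest of the 9, and the change was -0.61 ± 0.13 (adjusted p = 0.0165). Its other 2 probe sets were not called, at -0.53 ± 0.18 (adjusted p = 0.101) and, for a dim one, 0.36 ± 0.28 (adjusted p = 0.531), and the mean of the 3 was -0.26 (adjusted p = 0.319).

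Atp6v1g1 and Atp6v1d encode parts of the stalks that join V1 to V0. For Atp6v1g1, in the peripheral stalk, the arrays gave 2232.3, 2312.6 and 2793.1 units in overexpressing, 4394.7, 3611.2 and 3210.4 in wildtype and 3343.3, 3480.9 and 3948 in knockdown cells. No overexpressing array reached a wildtype or knockdown value, and the change was -0.60 ± 0.13 (adjusted p = 0.0148). A second probe set read -0.44 ± 0.16 (adjusted p = 0.121) and another, dim, one went the other way in value, at 0.81 ± 0.42 (adjusted p = 0.291), so that the mean of its 3 probe sets was -0.08 (adjusted p = 0.872). Atp6v1d, in the central rotor, read 1656.4, 1544.6 and 1550.9 in overexpressing arrays, 2458.2, 2186.4 and 1983.7 in wildtype and 1712.8, 1831.1 and 2062.1 in knockdown. Its groups were ordered overexpressing, knockdown, wildtype, the last pair with an overlap between wildtype C and knockdown C, and overexpressed over wildtype was -0.47 ± 0.10 (adjusted p = 0.0158). Its other 2 probe sets fell further, by 0.84 (adjusted p = 0.00405) and 0.75 (adjusted p = 0.0024) on the log2 scale.

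Calls for 3 of these 4 V1 genes depended on single arrays, and the Atp6v1a call did not. The Atp6v1d call was lost without overexpressed B (adjusted p = 0.0576), overexpressed C (0.0509), wildtype A (0.0508) or wildtype B (0.0583). Atp6v1b2 lost its call without overexpressed A (adjusted p = 0.0616), overexpressed B (0.0671), wildtype A (0.056) or wildtype B (0.0594). Atp6v1g1 lost its call without overexpressed A (adjusted p = 0.0617) or overexpressed B (0.0578). The remaining V1 genes were not called. Atp6v1f, a rotor subunit, gave -0.44 ± 0.14 (adjusted p = 0.0769), Atp6v1h, which couples ATP hydrolysis to the pump, -0.26 ± 0.10 (adjusted p = 0.169) and Atp6v1e1, a peripheral stalk subunit, -0.19 ± 0.10 (adjusted p = 0.305). The C subunit gene Atp6v1c1, whose product controls the joining of V1 and V0, read 4091.1, 4294 and 4108 units in overexpressing, 4081, 4236.4 and 4163.3 in wildtype and 4013.1, 3910.8 and 3988 in knockdown arrays. Overexpressing and wildtype values interleaved, and the 95% interval of their log2 difference ran from -0.15 to 0.15. That interval does not reach the values of the 4 called V1 genes.

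Of the 4 measured V0 genes, 2 fell (50%), against 6.21% of all genes and 9.93% of the brighter ones. Atp6v0b, the c″ subunit of the proton-carrying ring, read 1691.5, 1807.9 and 2029.5 units in overexpressing, 2467.8, 2538.6 and 2204 in wildtype and 2586.6, 2611.6 and 2273.3 in knockdown arrays. Every overexpressing array was below the other 6, with a change of -0.38 ± 0.10 (adjusted p = 0.0345) over wildtype. This call was among the least stable: it was lost without overexpressed A (adjusted p = 0.126), overexpressed B (0.101), wildtype A (0.0933) or wildtype B (0.133), with a common array median (0.0526), with the letter as a replicate block (0.0543) with only the 2 groups fitted (0.0575) and with the mean of its 3 probe sets (0.0648). All 3 of its probe sets are of types that may match related transcripts, and the 2 dimmer ones were not called (adjusted p = 0.36 and 0.105). Atp6v0d1, which links the ring to the V1 rotor, stood at the threshold with -0.40 ± 0.11 (adjusted p = 0.049). It read 2449.2, 2390.1 and 2778.4 units in overexpressing, 3891.2, 3337.5 and 2901.7 in wildtype and 3405.3, 3593.3 and 3147.8 in knockdown arrays, without overlap between the first group and the others. It was the last of the 15 by p, fell outside the rule of 14 genes given in full, and is shown because of its place at the threshold. Atp6v0a1, the neuronal a subunit, gave -0.38 ± 0.19 (adjusted p = 0.275) and Atp6v0e, a small membrane subunit, 0.16 ± 0.10 (adjusted p = 0.411).

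Of the accessory proteins, Atp6ap2, also known as the prorenin receptor and needed for pump assembly, fell. It read 2693.2, 2571.2 and 2691.7 units in overexpressing arrays, 4505.9, 4613.4 and 3943.9 in wildtype and 3454.1, 2869.5 and 3218.1 in knockdown arrays. The 3 groups did not overlap, with overexpressing at 60.9% and knockdown at 73.0% of the wildtype mean. Overexpressed over wildtype was -0.71 ± 0.09 (adjusted p = 0.00151), and its other 2 probe sets were also called (adjusted p = 0.00937 and 0.00618). The brightest and the first of these 2 are of a type that may match related transcripts. The dimmest, at -0.52, is not of that type. Atp6ap1, the other accessory protein, gave -0.48 ± 0.18 (adjusted p = 0.14) and its groups overlapped. Taking V1, V0 and accessory genes together, 7 of 14 pump genes fell with a median of -0.42. This was 50%, against 6.21% of all genes and 9.93% of the brighter ones.

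Among the 10 lysosomal proteases 4 fell (40%), against 6.21% of all genes and 9.93% of the brighter ones. Lgmn, legumain, which cuts after asparagine and processes cathepsins, had the smallest p of all 38 genes. It read 2935.7, 2754.3 and 2921.9 units in overexpressing, 5310.9, 5320.1 and 4334 in wildtype and 4645.7, 5623.4 and 4994.5 in knockdown arrays. The overexpressing arrays lay close together at 57.5% of the wildtype mean, far below the other groups, which overlapped, and the change was -0.79 ± 0.10 (adjusted p = 0.00151). Ctsd, the aspartic protease cathepsin D, had the lowest fold change, with 3960.4, 3189.7 and 3391.9 units in overexpressing, 8341.4, 6166.9 and 4582.2 in wildtype and 4426.8, 5225.3 and 4832.4 in knockdown arrays. The wildtype arrays were spread widely, with A the highest and C inside the range of the knockdown arrays, and all overexpressing arrays lay below the other 6. The change was -0.82 ± 0.18 (adjusted p = 0.0173).

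Tpp1, tripeptidyl peptidase, whose loss causes a childhood neuronal ceroid lipofuscinosis, read 1587.7, 1363.8 and 1626.4 units in overexpressing, 2568.1, 2242.2 and 1908.6 in wildtype and 1852.3, 1827 and 1750.2 in knockdown arrays. The groups followed each other without overlap from overexpressing through knockdown to wildtype, and overexpressed over wildtype was -0.54 ± 0.11 (adjusted p = 0.0137). Its other probe set gave -0.91 ± 0.17 (adjusted p = 0.00719). Ctsz, the carboxypeptidase cathepsin Z, read 4873.1, 4663.7 and 5551.8 in overexpressing, 7428.8, 7411.2 and 6618.9 in wildtype and 6386.5, 5468.8 and 6705 in knockdown arrays. Overexpressing arrays were below all wildtype arrays but overlapped with knockdown B, and the change was -0.51 ± 0.10 (adjusted p = 0.012), with its other 2 probe sets called as well (adjusted p = 0.00462 and 0.0424). Those other 2 are of types that may match related transcripts. Without overexpressed B the calls for Ctsd (adjusted p = 0.0674), Tpp1 (0.057) and Ctsz (0.0522) were lost. The same 3 calls were lost without wildtype B (0.0615, 0.0559 and 0.0567), and that of Ctsd also without overexpressed C (0.0539). Of the proteases not called, Ctsb, cathepsin B, gave -0.54 ± 0.17 (adjusted p = 0.0817) and Ctsl, cathepsin L, -0.30 ± 0.12 (adjusted p = 0.153). Ctsa, the serine carboxypeptidase that also protects Neu1 and beta-galactosidase, gave -0.07 ± 0.14 (adjusted p = 0.839). Ctsf, Ctsh and Ctsc, further cysteine cathepsins, were dim, at -0.17, -0.05 and 0.49 with adjusted p of 0.487 or more.

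The 7 glycosidases held 1 called gene. Neu1, the sialidase, read 289, 270 and 288.9 units in overexpressing, 628.8, 468.8 and 401.3 in wildtype and 411.6, 424.8 and 374 in knockdown arrays. All overexpressing arrays were below the others, at 56.6% of the wildtype mean, and the change was -0.76 ± 0.16 (adjusted p = 0.0134). Its other 2, dimmer, probe sets were not called, at -0.14 (adjusted p = 0.808) and -0.03 (adjusted p = 0.955), and the mean of the 3 was -0.31 (adjusted p = 0.319). Glb1, beta-galactosidase, gave -0.45 ± 0.14 (adjusted p = 0.071), and Gla, alpha-galactosidase A, -0.43 ± 0.15 (adjusted p = 0.115). Hexa, the alpha subunit of hexosaminidase A, gave -0.37 ± 0.17 (adjusted p = 0.212), and Gaa, the acid glucosidase that degrades glycogen, -0.30 ± 0.10 (adjusted p = 0.084). Man2b1, alpha-mannosidase, and Gusb, beta-glucuronidase, gave -0.20 (adjusted p = 0.438) and -0.04 (adjusted p = 0.898). The 1 call (14.3%) was near the 9.93% called lower among the brighter genes of the array. All 7 values were below 0, against 53.5% of all genes. In all but Gusb the overexpressing arrays lay below every wildtype array (85.7%), which held for 16.1% of all genes.

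In the group that handles lipids 3 of 5 genes fell (60%), against 6.21% of all genes and 9.93% of the brighter ones. Psap, the precursor of the saposins that present sphingolipids to their hydrolases, read 3160.4, 4514 and 4665.4 units in overexpressing, 6781.1, 6727.7 and 6188.3 in wildtype and 6000.5, 7063.7 and 6567.1 in knockdown arrays. Overexpressed A was the lowest, all 3 overexpressing arrays were below the other 6, and the change was -0.69 ± 0.14 (adjusted p = 0.0106), with a second probe set at -0.64 ± 0.17 (adjusted p = 0.0361). Npc2, which carries cholesterol inside the lysosome, read 4854.9, 5498.9 and 5901.8 in overexpressing, 8650, 8126.6 and 6968.5 in wildtype and 6838.3, 7787.8 and 7532.4 in knockdown arrays. Here too the overexpressing arrays were the 3 lowest, at 68.5% of wildtype, with a change of -0.54 ± 0.11 (adjusted p = 0.0102) and a second probe set at -0.55 ± 0.16 (adjusted p = 0.0621). Asah1, acid ceramidase, read 2309.2, 2456 and 2695.4 in overexpressing, 3537.7, 3445.3 and 3284.2 in wildtype and 3720.5, 2862.1 and 2798.8 in knockdown arrays. Its overexpressing arrays were again the lowest, while knockdown A stood above all wildtype arrays, and the change was -0.46 ± 0.11 (adjusted p = 0.0277). That call was lost without overexpressed A (adjusted p = 0.103), overexpressed B (0.0827), wildtype A (0.0813) or wildtype B (0.0915). Ppt1, palmitoyl-protein thioesterase, gave -0.46 ± 0.14 (adjusted p = 0.067) and Npc1, the membrane partner of Npc2, -0.47 ± 0.20 (adjusted p = 0.196). Together, 8 of the 22 genes for hydrolases, cofactors and cholesterol handling fell (36.4%), with a median of -0.45.

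Neither of the 2 membrane glycoproteins was called. Lamp1, a main component of the lysosomal membrane, read 4531.1, 4199.3 and 4521.3 units in overexpressing, 4925.8, 4255.2 and 4017.1 in wildtype and 4174.6, 4644.3 and 4175.9 in knockdown arrays. The 3 groups interleaved, and the 95% interval of overexpressed over wildtype was -0.20 to 0.22 around 0.01 ± 0.09 (adjusted p = 0.972). Lamp2, its relative with a role in chaperone-mediated autophagy, gave -0.52 ± 0.22 (adjusted p = 0.174), with overlap between the groups.

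**Figure D3:**
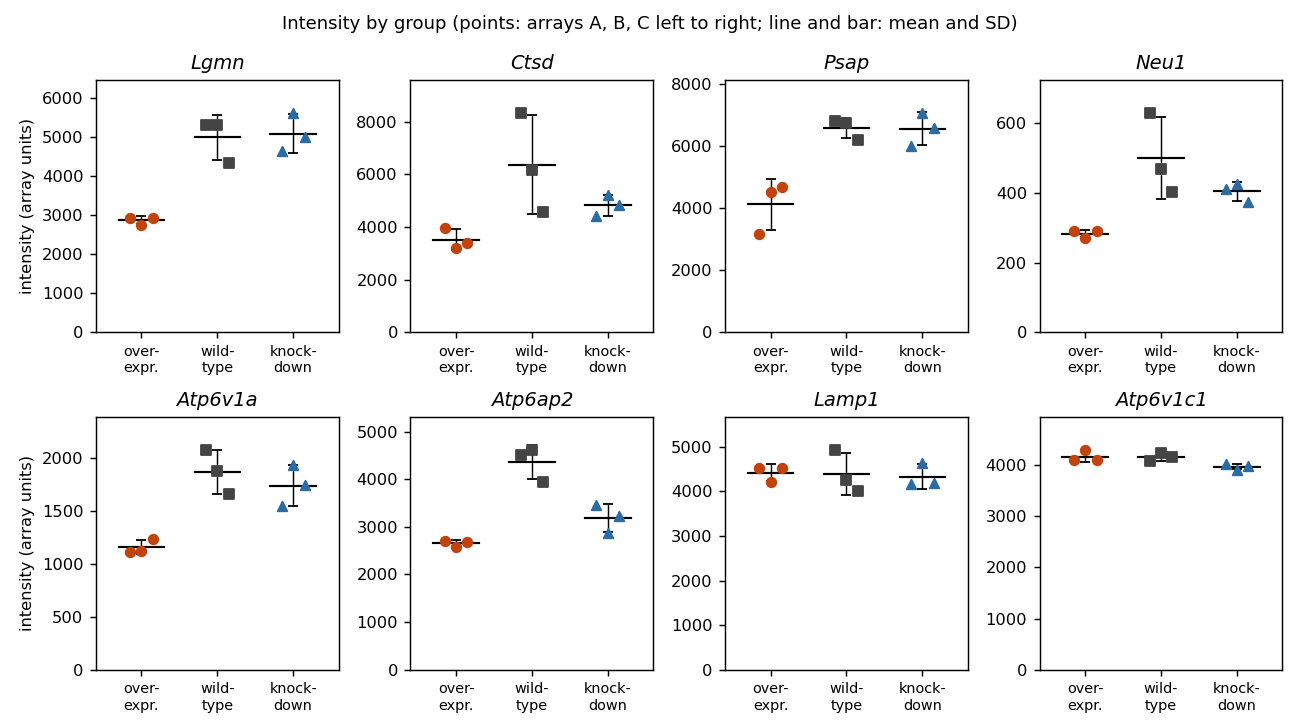
Intensity in array units, from 0, for 8 lysosomal genes in overexpressing (circles), wildtype (squares) and knockdown (triangles) arrays, with the mean as a line and the SD over 3 arrays as a bar. Lgmn, Ctsd, Psap, Neu1, Atp6v1a and Atp6ap2 were called lower in overexpressed over wildtype; Lamp1 and Atp6v1c1 interleave between those groups.

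Genes with several probe sets allow the direction to be read more than once in the same arrays. Of 21 such genes, 16 had all of their probe sets below 0 in overexpressed over wildtype, and in 6 (Atp6ap2, Atp6v1a, Atp6v1d, Ctsz, Psap and Tpp1, named from their values) every probe set was called. The share of all genes on the array with such agreement was not computed. Over all 74 probe sets, 65 were below 0 and 9 above, against 52.1% of all probe sets below 0. Of the 74, 24 (32.4%) were called lower and 0 higher, against 5.07% and 4.52% of all probe sets. Probe sets of 1 gene share the RNA and are not replicates.

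In the arrays labelled knockdown no lysosomal gene was called against wildtype. With limma, 0 of 38 genes and 0 of 74 probe sets passed, the lowest adjusted p was 0.125, and 4 genes had an unadjusted p under 0.05. Over the whole array 3 probe sets (0.0133%) were called, and 103 without wildtype C and 46 with the brightest 60% of probe sets alone. The median fold change was -0.12, against 0.04 for all genes, and 28 of 38 values were below 0, against 42.7% of all genes. For 5 genes (13.2%) all knockdown arrays lay below all wildtype arrays, against 6.69% of all genes; these were Atp6ap2, Tpp1 and Gaa, and, named from their values, Ctsl and Atp6v1c1.

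The 5 genes with the smallest p in knockdown over wildtype did not pass. They were Atp6ap2, at -0.45 ± 0.09 (adjusted p = 0.125), Tpp1, at -0.29 ± 0.11 (adjusted p = 0.385), Gaa, at -0.25 ± 0.10 (adjusted p = 0.386), Atp6v1d, at -0.24 ± 0.10 (adjusted p = 0.427), and Ctsz, at -0.21 ± 0.10 (adjusted p = 0.498). Gaa read 1068.4, 977.1 and 1098.9 units in overexpressing, 1450.5, 1209.8 and 1222.4 in wildtype and 1123.5, 1050.5 and 1074.9 in knockdown arrays. Both manipulated groups lay below wildtype and overlapped with each other, but its brightest probe set may match related transcripts and its other probe set gave 0.21 ± 0.21 (adjusted p = 0.759) in knockdown over wildtype. For Atp6ap2 the 3 probe sets gave -0.45, -0.53 and -0.39 (adjusted p = 0.125, 0.173 and 0.179), each without overlap between knockdown and wildtype arrays. Of these, only the last is not of a type that may match related transcripts. Both comparisons use the same 3 wildtype arrays, so their values can move together. Side by side, overexpressed over wildtype and knockdown over wildtype gave -0.79 and 0.03 for Lgmn, -0.69 and -0.01 for Psap, -0.82 and -0.36 for Ctsd, and -0.71 and -0.45 for Atp6ap2.

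The comparison between the manipulated groups does not use the wildtype arrays for its means. In overexpressed over knockdown 7 genes were lower and 0 higher (18.4% lower), against 5.25% of all genes by brightest probe set, with a median of -0.26 against -0.08. Bright genes are called more often, and the share of the array's brighter genes called lower was not computed for this comparison. All 7 were among the 34 lysosomal genes brighter than the median probe set. By probe set the array had 4.14% called lower and 3.43% higher, and with a common array median the balance turned, with 815 of 1429 calls higher against 776 of 1713. All overexpressing arrays lay below all knockdown arrays for 18 genes (47.4%), against 17.7% of all genes, and 32 of 38 values were below 0, against 59.0%. The 7 were Lgmn at -0.82 ± 0.10 (adjusted p = 0.00177), Atp6v1a at -0.58 ± 0.11 (adjusted p = 0.0117), Psap at -0.69 ± 0.14 (adjusted p = 0.0147), Atp6v1b2 at -0.59 ± 0.13 (adjusted p = 0.0248), Atp6v0b at -0.43 ± 0.10 (adjusted p = 0.0252), Atp6v1g1 at -0.55 ± 0.13 (adjusted p = 0.0267) and Npc2 at -0.45 ± 0.11 (adjusted p = 0.0303). By role these were 3 V1 subunits, 1 V0 subunit, 1 protease and 2 genes of the lipid-handling group. Their values per array are given above, and this comparison shares the overexpressing arrays with overexpressed over wildtype. The count was 2 without overexpressed A or without knockdown B, 3 without overexpressed B, 4 without knockdown C and 9 without wildtype A, and it was 3 with a common array median and 1 without the mean-variance trend. Over the whole array, 1713 calls in either direction became 704, 908, 957, 1004 and 2048 without those arrays, in the same order. They became 1429 with the common median and 834 without the trend. Without overexpressed A the calls of Atp6v1a, Atp6v1b2, Atp6v0b, Atp6v1g1 and Npc2 were lost (adjusted p = 0.0511, 0.0893, 0.1, 0.104 and 0.116), and without knockdown B those of Psap, Atp6v1b2, Atp6v0b, Atp6v1g1 and Npc2 (0.0568, 0.0821, 0.0822, 0.0664 and 0.0993). Without overexpressed B the lost calls were Atp6v1b2, Atp6v0b, Atp6v1g1 and Npc2 (0.0863, 0.0755, 0.0854 and 0.0749), and without knockdown C they were Atp6v1b2, Atp6v1g1 and Npc2 (0.083, 0.0896 and 0.0861). Without knockdown A those of Atp6v0b (0.083) and Atp6v1g1 (0.052) were lost, and without wildtype B that of Npc2 (0.0503). Lgmn kept its call in each of the 19 alternatives run for it. With the mean of its 3 probe sets Atp6v1b2 gave -0.29 (adjusted p = 0.266) and Atp6v0b -0.27 (adjusted p = 0.176). For Atp6v1g1 that mean was 0.01 (adjusted p = 0.975), so its direction here rested on the brighter probe sets.

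A wider list of 149 lysosome and autophagy genes, of which 116 were measured, was measured beside these. In overexpressed over wildtype 24 fell (20.7%) and 1 rose, with a median of -0.20, against 6.21% of all genes called lower, 9.93% of the brighter ones and a median of -0.03. The count of lower genes was 13 without wildtype B and 15 without overexpressed A, while 2169 calls over the whole array became 1090 and 1197. In knockdown over wildtype 0 of the 116 passed, with 0 higher and 0 lower. In overexpressed over knockdown 12 of the 116 were lower (10.3%, against 5.25% of all genes) and 1 higher, with 6 lower without knockdown B and 7 without either overexpressed A or knockdown A. Whole-array calls, 1713 in this comparison, became 908, 704 and 953 in the same order. The share of brighter genes called lower was not computed for this comparison.

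Other lysosomal enzymes and cofactors counted 6 lower of 26 (23.1%), against 6.21% of all genes and 9.93% of the brighter ones. They included Arsa, arylsulfatase A, at -1.22 ± 0.12 (adjusted p = 0.000444), and Naglu, an enzyme of heparan sulfate breakdown, at -0.83 ± 0.12 (adjusted p = 0.00232). Gm2a, the activator of ganglioside breakdown, gave -0.77 ± 0.13 (adjusted p = 0.00495), and Smpd1, acid sphingomyelinase, -0.56 ± 0.12 (adjusted p = 0.0148). Of 22 other lysosomal membrane proteins 5 fell (22.7%), against the same shares. Scarb2, the receptor that carries glucocerebrosidase to lysosomes, gave -0.65 ± 0.07 (adjusted p = 0.000813) and Lmbrd1, needed for cobalamin export, -0.71 ± 0.13 (adjusted p = 0.00611). Laptm4a, a lysosomal transmembrane protein, gave -0.48 ± 0.10 (adjusted p = 0.0132) and Cln3, a Batten disease gene, -0.80 ± 0.17 (adjusted p = 0.0164).

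Of 10 other pump subunits and isoforms, Atp6v0e2, a brain isoform of the e subunit, was the 1 that fell (10%), at -0.62 ± 0.12 (adjusted p = 0.00889), a share near that of the brighter genes of the array. Tcirg1, the osteoclast a subunit, gave -0.22 ± 0.13 (adjusted p = 0.343), and Atp6v1g2 and Atp6v1b1, both dim here, gave -0.46 (adjusted p = 0.601) and 0.20 (adjusted p = 0.777). Among 16 transcription factors and nutrient sensors 2 were called lower (12.5%), near the 9.93% of brighter genes on the array. They were Lamtor3 at -1.06 ± 0.14 (adjusted p = 0.0016) and Lamtor2 at -0.63 ± 0.10 (adjusted p = 0.00405). Both are parts of the Ragulator complex, which anchors mTORC1 signalling at the lysosome. The Rag GTPase genes Rragc and Rragd were not called, at -0.42 (adjusted p = 0.0666) and -1.10 (adjusted p = 0.0769). Of 19 genes for delivery to lysosomes 2 were called lower (10.5%), close to the 9.93% of brighter genes on the array, so the count says nothing particular of this group. They were Rab7, a late endosome GTPase, at -0.35 ± 0.08 (adjusted p = 0.0164) and Gga2, an adaptor of the trans-Golgi, at -0.39 ± 0.09 (adjusted p = 0.0235), while Vps11 and Lyst were not called (adjusted p = 0.14 and 0.144).

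Autophagy genes counted 8 lower and 1 higher of 23. The share called lower was 34.8%, against 6.21% of all genes and 9.93% of the brighter ones. Gabarapl1, a member of the Atg8 family, read 1367, 1290.7 and 1423.3 units in overexpressing arrays, 4785.1, 4193.7 and 2558.2 in wildtype and 2435.2, 2862.1 and 3015.5 in knockdown. Its overexpressing arrays were well below the rest, at -1.44 ± 0.19 (adjusted p = 0.00154). Bnip3, a mitophagy receptor induced by low oxygen, read 582.2, 578.2 and 761.4 in overexpressing, 1247, 2186.8 and 2984.7 in wildtype and 5426.1, 5304.8 and 5468 in knockdown arrays. The groups did not overlap and ran from overexpressing through wildtype to knockdown. Overexpressed over wildtype was -1.64 ± 0.25 (adjusted p = 0.00273), knockdown over wildtype 1.42 ± 0.25 (adjusted p = 0.0918) and overexpressed over knockdown -3.06 ± 0.25 (adjusted p = 0.000178). Wipi1, a phosphoinositide-binding protein, and Nbr1, a cargo receptor, fell at -0.73 ± 0.13 (adjusted p = 0.00651) and -0.72 ± 0.15 (adjusted p = 0.0113). The 1 that rose, named from its values, was Map1lc3a, another Atg8 family member, at 0.47 ± 0.10 (adjusted p = 0.0179).

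**Figure D4:**
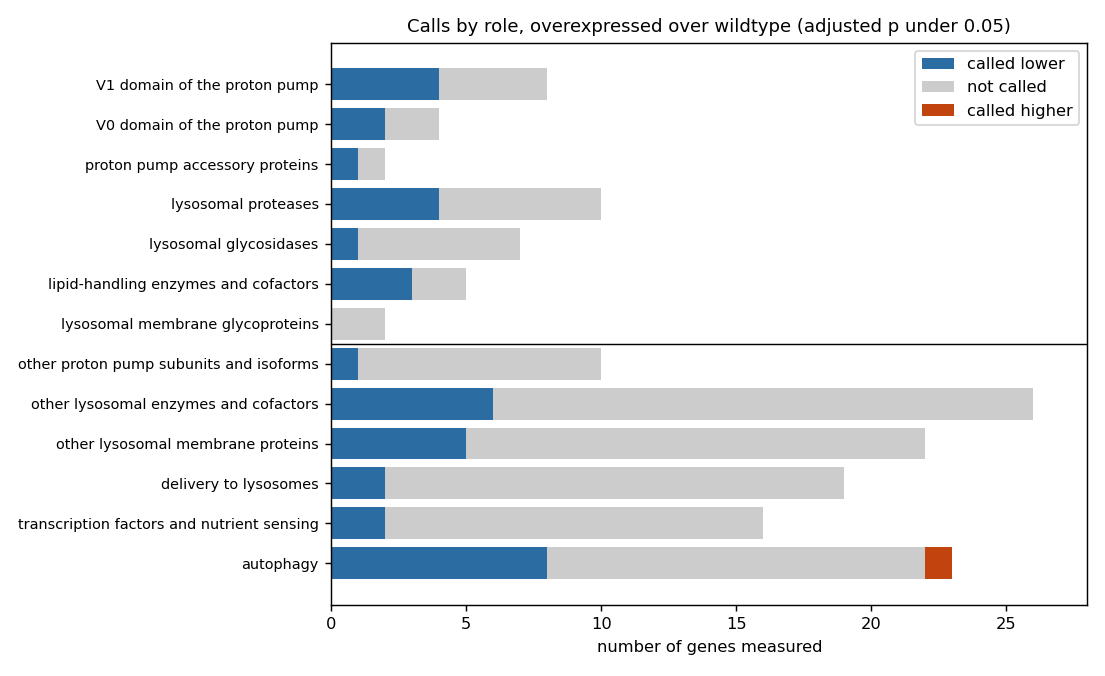
Number of genes called lower, not called and called higher in overexpressed over wildtype, by role, with the 38 lysosomal genes above the line and the 116 genes of the wider list below it. The V1 domain has 4 of 8 called lower and the autophagy group 8 of 23, with 1 called higher. Over all genes of the array 6.21% were called lower.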

How the data were processed

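The authors deposited linear intensity values, 1 per probe set and array. The sources used here name no software, background correction or scaling. With 2% of values trimmed from each end, the array means were 500.18 to 500.2, so the deposited intensities had a common scale and were used as given. Of 22690 probe sets, 64 controls were left out. Values were converted to log2(intensity + 16), which understates changes of dim probe sets, and fitted with limma 3.58.1 in R 4.3.3 (lmFit, eBayes with trend) over all 9 arrays. Adjustment was by Benjamini-Hochberg over 22626 probe sets per comparison.

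The genes, the wider list and its roles were chosen with earlier results of these data known. A gene is represented by its brightest probe set. Values per array are given for called genes, at most 14 per comparison by p, or for the 5 with the smallest p where fewer than 5 were called. From the wider list, up to 4 genes per role with the smallest p are named. Fold changes are log2 values with the SE from limma. The number of arrays limits the precision. Promoter sequences are from RefSeq, GRCm38.p6. The array's letters were not used as pairs. Alternatives covered the offset, filter, normalization, trend, samples fitted, block, probe set types and each array left out.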

Additional observations from a re-analysis of the deposited data

How the results depend on the processing

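No lysosomal gene was called higher in any of the 3 comparisons, nor called lower in knockdown over wildtype, under the alternatives run. The median fold change stayed between -0.52 and -0.34 in overexpressed over wildtype, -0.18 and -0.09 in knockdown over wildtype, and -0.28 and -0.21 in overexpressed over knockdown. The 15 lysosomal genes lower in overexpressed over wildtype became 8 with a further fold of at least 1.5, 5 with no trend, and 6 to 19 with 1 array left out. The 7 lower in overexpressed over knockdown became 3 with the 1.5-fold limit, 3 with a common median, 1 with no trend, and 2 to 9 with 1 array left out. For the wider list, 24 became 13 to 28 with 1 array left out, and 12 became 6 with no trend and 6 to 14 with 1 array left out. Over the whole array, 2169 probe sets called in overexpressed over wildtype became 1339 with no trend and 1090 to 2404 with 1 array left out, and 1713 in overexpressed over knockdown became 834 and 704 to 2048; the 3 in knockdown over wildtype became 0 to 103, with 103 without wildtype C, and 46 among the brightest 60% of probe sets, 11 with the mean of a gene's probe sets 0 with the replicate block and 1 to 4 in the other alternatives. The signs that turned were Gaa in knockdown over wildtype, at 0.21 without the probe set types that may match related transcripts, and Atp6v1g1 in overexpressed over knockdown, at 0.013 with the mean of all probe sets; neither was called there. With a replicate block for the letter, 13, 0 and 7 lysosomal genes were called lower in the 3 comparisons. The letters were not taken as pairs because the sources used here do not say what they stand for. Deviations of same-lettered arrays correlated at -0.01 to 0.10 over all probe sets, which cannot settle whether the arrays were paired. The causes of these shifts were not tested. Dim probe sets limit Ctsc, Ctsf, Ctsh and Npc1, for which the deposited table gives no detection call.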
